A study of Mus musculus with 2 samples.

Results

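Classical monocytes were picked out of single-cell RNA counts of CD45+ spleen cells (leukocytes) by the UMIs of 14 genes in each barcode, a UMI (unique molecular identifier) standing for 1 captured RNA molecule. A barcode was taken when it had at least 10 UMIs of Lyz2 (lysozyme, made by myeloid cells), at most 2 of Cd79a (a B cell receptor subunit), none of Cd3e (a T cell receptor subunit), fewer than 10 of S100a9 (an abundant neutrophil protein) and at least 2 of Ly6c2 (the surface antigen by which mouse classical monocytes are sorted). It also had to hold a UMI of at least 2 of the 5 genes Ccr2, F13a1, Fn1, Chil3 and Vcan, and of fewer than 2 of the 4 nonclassical monocyte genes Ace, Treml4, Cd300e and Adgre4. Of 15941 barcodes that passed the filters on detected genes, UMIs and mitochondrial RNA, 225 met these conditions, 122 in the Vehicle library and 103 in the Glutoborin library. Levels of the 14 genes are therefore given as a description, and nothing is supported by them.

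The mice were wild type (labelled WT) and every group had been infected: 10000 iRBCs, an abbreviation that the labels do not spell out, were given intraperitoneally, and Vehicle or Glutoborin followed on days 2 and 4. Spleens were taken on day 5 and CD45+ cells were sorted by flow cytometry. Each group is 1 library, with no uninfected spleen analysed here, and the number, age and sex of the mice behind each library are not given in the sources used here. No test across replicates could be run, so the intervals below (95%, exact) cover counting error only and not the spread between mice.

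Classical monocytes leave the bone marrow through the chemokine receptor Ccr2, circulate, and enter inflamed tissue, where they become macrophages or dendritic-like cells. The spleen holds a reserve of them beside its own red pulp macrophages, and nonclassical monocytes, which patrol vessels, arise from them as Ly6c2 is lost. Type I interferons bind the receptor made of Ifnar1 and Ifnar2 and, through factors that include Jak1, Tyk2, Stat2 and Irf9, switch on a large set of antiviral genes, in part through DNA elements that repeat the letters GAAA; interferon gamma acts through Ifngr1, Ifngr2, Jak1 and Jak2 on an overlapping set. Monocytes also present antigen, make chemokines and cytokines, and take up red cells and lipid.

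In each library the lysozyme condition removed the most barcodes, leaving 300 of 6688 in Vehicle and 275 of 9253 in Glutoborin, and the Cd79a, Cd3e, S100a9, Ly6c2, classical and nonclassical conditions then left 250, 209, 205, 192, 173 and 122 against 237, 207, 192, 158, 135 and 103. Most members lay far inside the thresholds: 117 of the 122 Vehicle and 92 of the 103 Glutoborin cells had at least 10 UMIs of Ly6c2, and 112 and 92 had at least 50 of Lyz2. Just inside the Ly6c2 threshold, 1 and 4 cells had 2 or 3 UMIs, and just outside it 1 Vehicle barcode with 1 UMI and 1 Glutoborin barcode with none met every other condition. Lyz2 had 10 to 19 UMIs in 3 Vehicle and 2 Glutoborin members, and 1 and 3 barcodes with 5 to 9 met every other condition. Cd79a had 1 or 2 UMIs in 43 and 44 members, and 12 and 2 barcodes with 3 to 5 lay just outside. S100a9 was at 0 in 102 and 90 members and at 1 to 4 in the other 20 and 13, and 1 and 2 barcodes with at least 10 lay outside. All 5 classical genes were detected in 55 Vehicle and 54 Glutoborin members, and no nonclassical gene in 89 and 69. The condition on nonclassical genes alone kept out 51 Vehicle and 32 Glutoborin barcodes, the Cd79a condition alone 21 and 17, and the Cd3e condition alone 21 and 13.

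The 5 classical monocyte markers used to check the label are all genes of the rule, so the check rests on markers of other cells. Csf1r, the M-CSF receptor of all monocytes, was outside the rule and had 421 CPM among Vehicle cells and 377 CPM among Glutoborin cells. Basophil and mast cell markers (Mcpt8, Cpa3, Fcer1a and Gata2) had no UMI in any member, nor did the neutrophil genes Retnlg and Cxcr2, the plasmacytoid dendritic cell genes Siglech and Cox6a2, the plasma cell genes Sdc1 and Tnfrsf17, or the progenitor gene Mpo. Other genes of these lists were present. Among them, Csf3r (neutrophil) was found in 78 Vehicle and 65 Glutoborin members, Tcf4 (plasmacytoid dendritic cell) in 80 and 57 and Prtn3 (progenitor) in 49 and 54. RNA of B cells was present in nearly every member: Igkc (an antibody light chain) had 514 UMIs in 119 of the Vehicle cells and 262 in 95 of the Glutoborin cells, and the 6 B cell markers summed to 751 CPM (UMIs per 1000000 UMIs of the cells) in Vehicle and 546 CPM in Glutoborin, against 24701 and 28822 CPM in B cells themselves. NK cell markers summed to 28.1 and 186 CPM, type 2 dendritic cell markers to 51.1 and 111 CPM, and red pulp macrophage markers to 38.9 and 17.3 CPM. How many cells these UMIs came from is given with the genes concerned. Neutrophil markers summed to 235 and 321 CPM, plasmacytoid dendritic cell markers to 113 and 89.0, plasma cell markers to 25.9 and 14.8. Progenitor markers summed to 79.2 and 158 CPM, and the 9 nonclassical monocyte markers, those of the rule included, to 379 and 338 CPM. Scrublet, a doublet caller, marked 1 member in each library.

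The members' summed depth was 1389223 UMIs in Vehicle and 1213487 in Glutoborin, with medians of 12031.5 and 11819 UMIs and 3233 and 3239 genes per cell, and 3 and 8 cells had fewer than 3000 UMIs. Across the whole libraries 8204 and 9646 barcodes held 48526451 and 56862506 UMIs. Of these, 1516 Vehicle and 393 Glutoborin barcodes failed the filters. The libraries shared 24 barcode sequences, none of them among the members.

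Classical monocytes were a smaller share of the Glutoborin library. They made up 1.82% of the filtered Vehicle barcodes (1.52 to 2.17%, Clopper-Pearson) and 1.11% of the filtered Glutoborin barcodes (0.909 to 1.35%), a log2 ratio of -0.71 (-1.11 to -0.32). Against all barcodes the shares were 1.49% and 1.07%, a log2 ratio of -0.48 (-0.87 to -0.09). Nonclassical monocytes were taken with the same conditions on Lyz2, Cd79a, Cd3e and S100a9 but with at least 2 of the 4 nonclassical genes. They were also a smaller share, at 1.14% (76 cells) and 0.757% (70 cells), a log2 ratio of -0.59 (-1.08 to -0.10). No limit on Ly6c2 or the classical genes was set for them. Every classical condition but that on nonclassical genes was met by 51 of the 76 Vehicle and 32 of the 70 Glutoborin cells. Only the nonclassical genes part those cells from the classical class. Classical cells were 61.6% of both monocyte classes in Vehicle (54.5 to 68.4%) and 59.5% in Glutoborin (51.8 to 66.9%), a log2 ratio of -0.05 (-0.44 to 0.34). The interval of this ratio treats each count as a small part of its total, so it is too wide here. The number of monocytes per spleen cannot be told from shares, and among barcodes with at least 5000 UMIs the log2 ratio of the share was -0.40 (-0.82 to 0.01).

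Of 3599 genes measured in the classical monocytes (at least 100 UMIs over both libraries), 190 (5.28%) were at least 1.5-fold lower in Glutoborin and 81 (2.25%) at least 1.5-fold higher, and the median log2 ratio over all of them was -0.02. Throughout, a log2 ratio compares Glutoborin with Vehicle on CPM of the summed UMIs. "Lower" and "higher" counts refer to the 1.5-fold limit, with no test behind them.

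**Figure D1:**
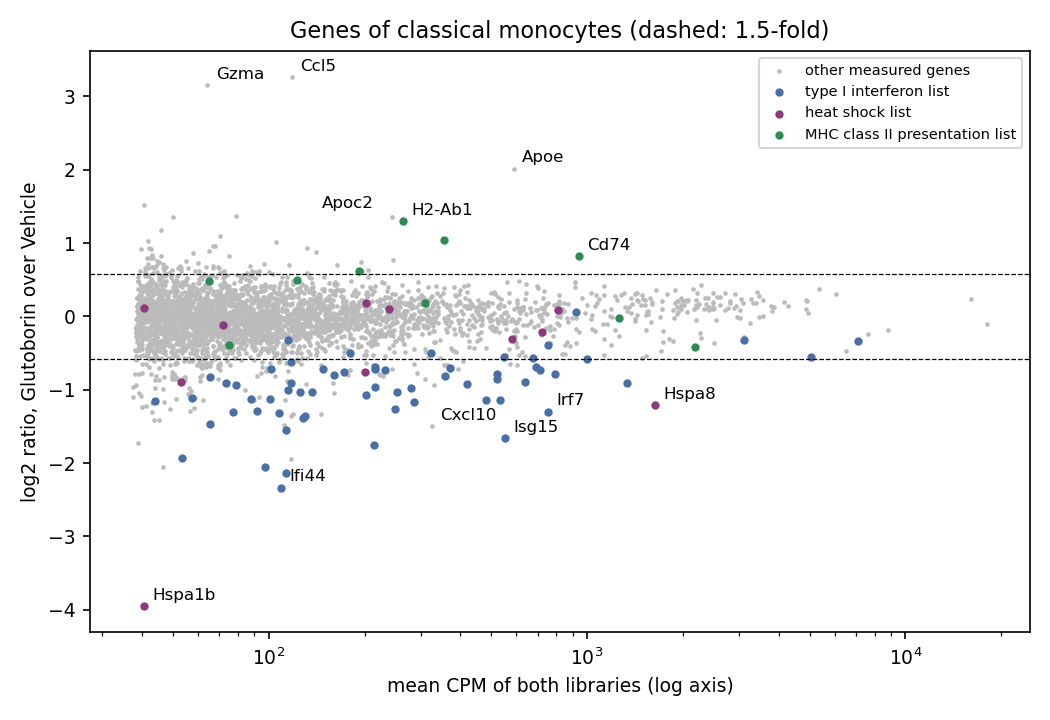
Log2 ratio of Glutoborin over Vehicle against the mean CPM of both libraries (log axis) for each of the 3599 measured genes of classical monocytes. Dashed lines mark 1.5-fold, blue points are the type I interferon list, purple the heat shock list and green the MHC class II presentation list. Blue points lie below 0 with 1 exception, Hspa1b is the lowest gene and Ccl5 the highest.

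The regulatory sequence upstream of a few of the interferon-induced genes is shown here because these genes are among the 15 named as lowest in Glutoborin and because a short element known from interferon-induced genes lies in front of them. The 4 were chosen for holding it. GAAANNGAAA, a core of the element bound by interferon-activated factors (N is any base), was looked for on both strands in the 250 bases before each start site, with overlapping matches counted. The sequences are from RefSeq on GRCm38.p6, written 5′ to 3′ on the gene's own strand and ending at the base before the start, with matches in capitals (TTTCNNTTTC is the same element on the other strand). They lie at chr4:156200819-156200938 (minus strand) for Isg15, chr12:26456453-26456572 (minus strand) for Rsad2, chr19:34583329-34583528 (plus strand) for Ifit3 and chr1:173673545-173673664 (plus strand) for Ifi208.
Isg15: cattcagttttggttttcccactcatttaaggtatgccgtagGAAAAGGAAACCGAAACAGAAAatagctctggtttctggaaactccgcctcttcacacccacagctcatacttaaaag
Rsad2: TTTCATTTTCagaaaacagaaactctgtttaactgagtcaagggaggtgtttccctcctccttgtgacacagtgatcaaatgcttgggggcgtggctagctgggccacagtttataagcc
Ifit3: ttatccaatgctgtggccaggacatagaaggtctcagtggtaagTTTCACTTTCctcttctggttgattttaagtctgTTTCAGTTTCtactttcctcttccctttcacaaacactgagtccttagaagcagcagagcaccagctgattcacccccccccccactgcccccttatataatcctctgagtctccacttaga
Ifi208: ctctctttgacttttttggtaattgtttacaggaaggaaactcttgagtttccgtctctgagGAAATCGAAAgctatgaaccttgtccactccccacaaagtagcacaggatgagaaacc
Isg15 held 3 overlapping copies that began 78, 72 and 66 bases before the start. Ifit3 held 2 on the opposite strand, beginning 156 and 122 bases before it. Rsad2 had 1, beginning 120 bases before the start, and Ifi208 had 1, beginning 58 bases before it. Among members of the type I interferon list with a promoter in the RefSeq table, 20 of 49 (40.8%) held the element in the 250 bases. It was held by 3.46% of all 27025 genes with a promoter there, by 5.02% of the 2906 measured in classical monocytes, by 9.17% of the 109 other genes at least 1.5-fold lower and by 6.56% of the 61 at least 1.5-fold higher. A match describes letters and is no evidence of binding. Of the other genes named as lowest, Cxcl10 also held the element, and Hspa8 and Tor3a had no promoter listed. Ifi44, Ifit2, Slfn4, Isg20, Phf11d, Irf7, Hspa1b and Ccl3 had no match in their windows. Among the genes named as highest that had a promoter listed, only Gzma held it.

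The type I interferon list was lower in Glutoborin almost as a whole. Of 67 listed genes found in the files 62 were measured, and 51 of these were at least 1.5-fold lower, none was higher, and 61 had a log2 ratio below 0, with a median of -0.91. The list took up 41134 CPM of the Vehicle and 26367 CPM of the Glutoborin monocytes' RNA, a log2 ratio of -0.64 (-0.66 to -0.62).

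The lowest log2 ratios of the list were those of Ifi44, Ifit2 and Rsad2. Ifi44, an interferon-induced cytoplasmic protein, was at 183 CPM in the Vehicle cells and 36.3 CPM in the Glutoborin cells (log2 ratio -2.33, -2.83 to -1.87). Ifit2, whose family binds RNA and restrains its translation, was at 185 and 42.0 CPM (-2.14, -2.60 to -1.70), and its neighbour Ifit3 at 329.7 and 98.1 CPM (-1.75). Rsad2 (viperin) was at 157 and 37.9 CPM (-2.05, -2.54 to -1.59). Vehicle was the higher library for each of these, and the intervals of the ratios lay wholly below 0. Isg15, the ubiquitin-like protein joined to other proteins after interferon, had 838 CPM among Vehicle cells and 265 CPM among Glutoborin cells (-1.66, -1.84 to -1.48). Its protease and receptor-level brake Usp18 was at 187 and 73.3 CPM (-1.35). The RNA exonuclease Isg20 was at 84.9 and 22.2 CPM (-1.93). Slfn4, a Schlafen gene of monocytes that the list does not hold, was at 186 and 48.6 CPM (-1.94). Close relatives in the Ifi200, Slfn, Oas, Phf11 and H2-Q families share sequence, which could have affected their counts.

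Among sensors of nucleic acid, the 2′-5′ oligoadenylate synthetases, which activate RNA decay, had log2 ratios of -1.31 for Oas1a, -0.93 for Oas2, -1.07 for Oas3 and -1.47 for Oasl1. The cytoplasmic RNA sensors Ifih1 (Mda5), Ddx58 (Rig-I) and Dhx58 were at -1.03, -1.12 and -1.28, and the Z-form nucleic acid sensor Zbp1 at -0.79. Of the Ifi200 family, Ifi208, which the list does not hold, was at 74.9 and 18.1 CPM (-2.05), beside Ifi205 at -1.26, Ifi209 at -1.14, Ifi204 at -0.78, Ifi211 at -0.74 and Ifi207 at -0.50, the last short of 1.5-fold. Phf11d was at 169 and 57.7 CPM (-1.55), with Phf11b at -1.17 and Phf11a at -1.15. Tor3a, an interferon-induced ATPase of the endoplasmic reticulum, was at 186 and 70.9 CPM (-1.39), and Bst2 (tetherin), which holds budding virus at the membrane, at 662 and 301 CPM (-1.14).

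The 5 most abundant members lay above the list median. Ifitm3, which blocks virus entry at the endosome, had 7902 CPM among Vehicle cells and 6252 CPM among Glutoborin cells (-0.34, -0.38 to -0.30), short of 1.5-fold. Ifi27l2a was at 6023 and 4101 CPM (-0.55), Ly6e at 3459 and 2779 CPM (-0.32) and Ms4a6b at 1195 and 802 CPM (-0.58). Ms4a4c passed the limit, at 1745 and 934 CPM (-0.90). Ifitm6 was the only measured member above 0, at 902 and 942 CPM (0.06, -0.05 to 0.18).

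Isg15 was detected in fewer Glutoborin monocytes when all cells were thinned to the same 3000 UMIs: in 84.0% of 119 Vehicle cells (76.2 to 90.1%) and 44.2% of 95 Glutoborin cells (34.0 to 54.8%), or 95.1% and 75.7% without thinning. B cells thinned the same way held an Isg15 UMI in 27.1% and 8.17%. The depth at full count was a median of 12031.5 and 11819 UMIs in the monocytes and 4774 and 4125.5 in the B cells. Irf7 was found in 91.6% and 68.4% of the thinned monocytes, Tor3a in 48.7% and 15.8%, and Ifit2 in 43.7% and 7.37%. The B cells held them in 46.7% and 18.0%, 22.9% and 11.8%, and 9.68% and 2.61%. The 10 richest cells held 20.4% of the Isg15 UMIs in Vehicle and 34.2% in Glutoborin, so the Isg15 signal was spread over most Vehicle cells.

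Cell by cell, the list's UMIs per 10000 UMIs of a cell had a median of 407 in Vehicle (lowest 223, highest 649) and 267 in Glutoborin (lowest 83.5, highest 425). The groups of cells overlapped: 74 of the 122 Vehicle cells lay below the highest Glutoborin cell. Yet 118 of the 122 Vehicle cells lay above the Glutoborin median and 3 of the 103 Glutoborin cells above the Vehicle median. The shift thus ran through nearly all members and did not come from a few cells. Cells of 1 library are not replicates, so this carries no test.

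**Figure D2:**
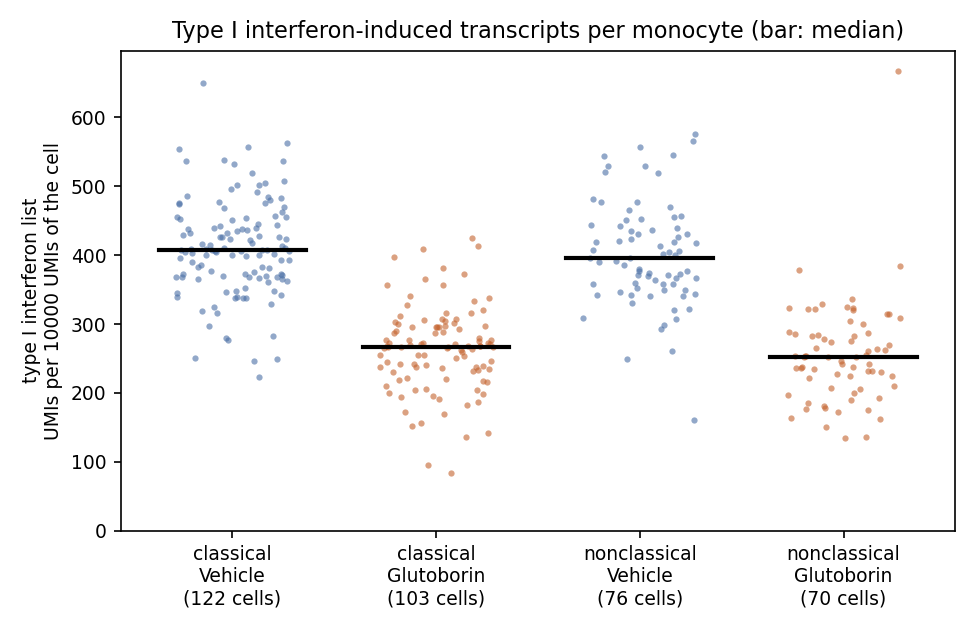
UMIs of the type I interferon list per 10000 UMIs of a cell (vertical axis) for each classical and nonclassical monocyte of both libraries, 1 point per cell, with the median as a bar. Classical medians were 407 in Vehicle and 267 in Glutoborin, nonclassical medians 396 and 252.

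Nonclassical monocytes and B cells of the same libraries showed the list lower too. In nonclassical monocytes 40 of 57 measured members were at least 1.5-fold lower (7.08% of all 2147 measured genes were, and 2.65% were higher), with a median log2 ratio of -0.86, and in B cells 59 of 64 (2.91% of 9935 measured genes, with 1.57% higher), with a median of -1.36. The level in Vehicle was higher in monocytes: 41134 CPM in classical and 40879 CPM in nonclassical Vehicle monocytes against 13879 CPM in Vehicle B cells. Irf7 had a log2 ratio of -1.30 in classical monocytes, -0.85 (-1.01 to -0.68) in nonclassical monocytes and -1.70 (-1.77 to -1.62) in B cells. Rsad2 had -2.05, -1.11 (-1.49 to -0.74) and -2.65 (-2.93 to -2.38). Whether the difference itself differed between these classes was not tested.

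Receptors and signalling genes of the pathway were mostly within 1.5-fold. The type I receptor genes Ifnar1 (-0.18, -0.75 to 0.37) and Ifnar2 (0.20, -0.08 to 0.47) had intervals that held 0, as did the kinases Jak1 (-0.18) and Tyk2 (-0.24) and the DNA-binding partner Irf9 (0.22). Of 19 measured genes 4 were lower and none higher, with a median of -0.24: Irf7, the factor that amplifies the response, at 1075 and 438 CPM (-1.30, -1.44 to -1.15), Usp18, Jak2 at 82.1 and 34.6 CPM (-1.25), and Stat2 at 184 and 112 CPM (-0.71). Ptpn6 (the phosphatase Shp-1) was at -0.05, Irf8 at 0.16 and Irf1 at -0.38.

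The interferon gamma list had a median nearer to 0 than the type I list. Of 29 measured genes 4 were at least 1.5-fold lower, none higher and 25 below 0, with a median of -0.44. The 4 were Gbp9 (a guanylate-binding protein, -1.29), Tgtp2 (an immunity-related GTPase, -0.59), Cxcl10 (a chemokine for activated T cells, also induced by type I interferon) and Fcgr1 (the high-affinity IgG receptor, at 435 and 276 CPM, -0.66). Gbp2 was at 506 and 374 CPM (-0.44), the lysosomal reductase Ifi30 at 1268 and 1244 CPM (-0.03), and the immunoproteasome genes Psmb8, Psme1 and Psme2 at -0.40, -0.48 and -0.45. Iigp1 (0.18, -0.25 to 0.61) and Serpina3g (0.57, 0.16 to 0.97) lay above 0.

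MHC class I presentation, which shows peptides to CD8 T cells, was lower by a small margin across the list. Of 21 measured genes 3 were past 1.5-fold, all lower, and 18 lay below 0, with a median of -0.39. B2m was at 3406 and 2818 CPM (-0.27), H2-D1 at 2823 and 2192 CPM (-0.37) and H2-K1 at 2071 and 1642 CPM (-0.33). The genes past the limit were the peptide-loading factor Tapbp (-0.71) and the nonclassical class I genes H2-T22 (-0.79) and H2-Q7 (-0.63). Psmb8, Psme1 and Psme2 are counted here as well as above.

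**Figure D3:**
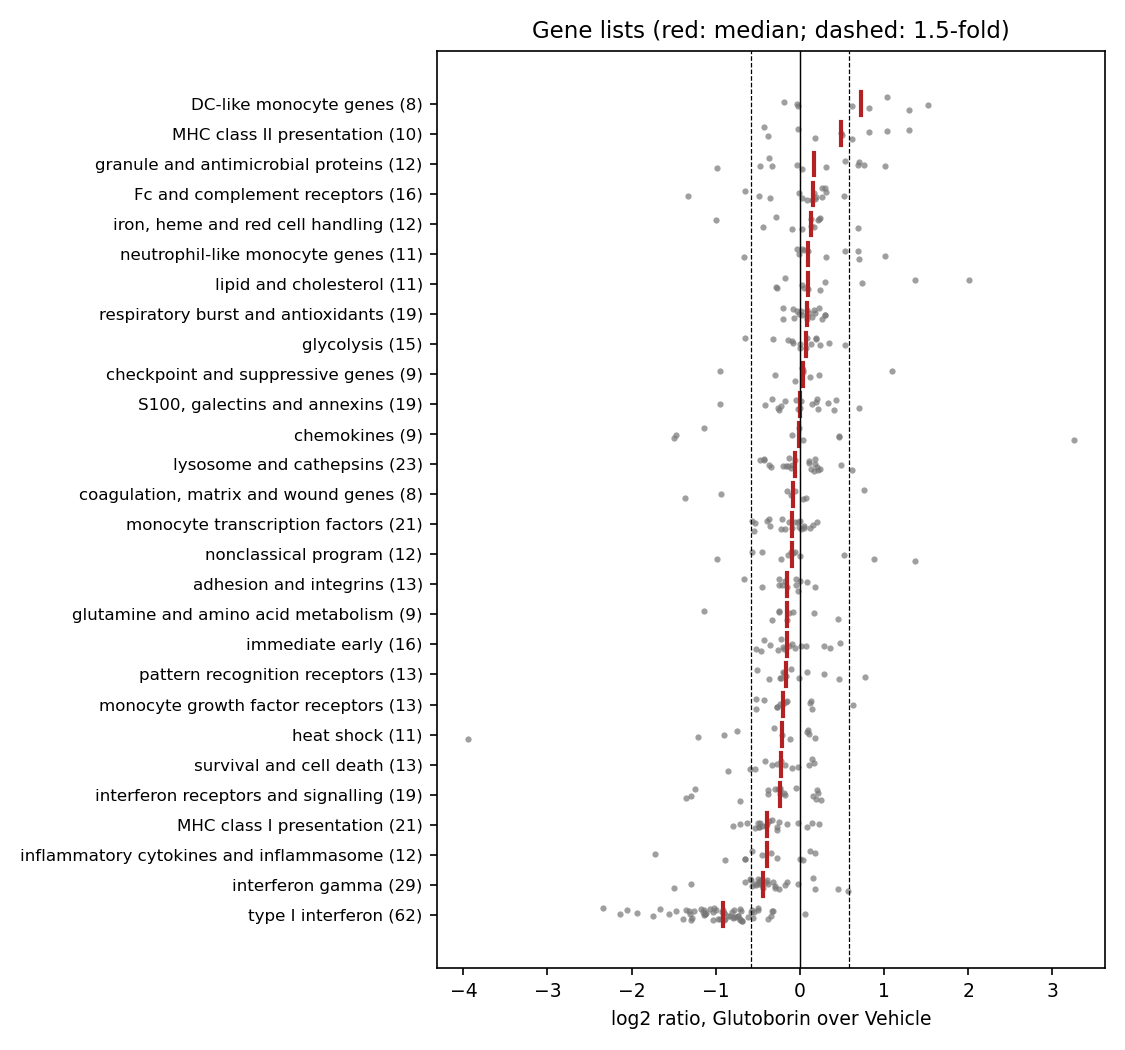
Log2 ratio of Glutoborin over Vehicle in classical monocytes for each measured gene (grey points) of each list with at least 8 measured genes, number in brackets, with the list's median in red and 1.5-fold as dashed lines. The type I interferon list has the lowest median (-0.91), followed by the interferon gamma list (-0.44), while the highest median, of the DC-like list (0.73), was -0.08 without cells rich in other types' genes.

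MHC class II genes, which show peptides to CD4 T cells, were higher in the summed Glutoborin monocytes, with most of their UMIs in few cells. Cd74, the invariant chain, had 679.5 CPM among Vehicle cells and 1205 CPM among Glutoborin cells (0.83), H2-Aa at 233 and 478 CPM (1.04), H2-Ab1 at 153 and 377 CPM (1.30) and H2-Eb1 at 151 and 233 CPM (0.63). These were the 4 of 10 measured genes past 1.5-fold, and the list median was 0.49. Cells with at least 50 UMIs of these 4 genes numbered 5 of 122 in Vehicle and 8 of 103 in Glutoborin, and held 56.5% and 76.6% of their UMIs. The median cell had 5.06 UMIs of the 4 genes per 10000 in Vehicle and 4.09 in Glutoborin, so the median member was not higher. Yet the upper quartile was higher in Glutoborin, at 7.91 in Vehicle and 11.5 in Glutoborin, while the lower quartile was 3.17 and 2.55. B cells carry class II RNA as well, and the 6 B cell markers summed to less in the Glutoborin than in the Vehicle members (546 and 751 CPM); their part in these values was not tested. Without the barcodes called doublets H2-Aa was at 1.53, and with members that had no Cd79a UMI it was at 0.44. Ctss, the protease that trims the invariant chain, was at 2499 and 1867 CPM (-0.42), and Ifi30, which opens disulfide bonds of antigens, is given above.

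Of 8 measured genes of monocytes that turn dendritic-like, 5 were higher, the 4 class II genes and Clec10a, a lectin of monocyte-derived dendritic cells, at 20.9 and 60.2 CPM (1.53). The list median was 0.73. Clec10a was detected in 23 Vehicle and 38 Glutoborin cells, its richest Glutoborin cell held 28.8% of the UMIs, and its log2 ratio was 0.39 as a mean of per-cell levels. Without the members rich in class II, NK or macrophage genes (leaving 117 and 94) Clec10a was at 0.93 (0.22 to 1.67), still past 1.5-fold. Thinned to equal depth, 8.40% of 119 Vehicle cells (4.10 to 14.9%) and 5.26% of 95 Glutoborin cells (1.73 to 11.9%) held a Clec10a UMI. Those intervals overlap and rest on 10 and 5 cells, so thinning cannot decide whether Clec10a was detected more widely in Glutoborin. At full count 18.9% and 36.9% of the members held it, with median depths of 12031.5 and 11819 UMIs. Cd209a, which marks this fate and type 2 dendritic cells, had at least 5 UMIs in 1 Vehicle and 2 Glutoborin cells, which held 90.6% and 97.8% of its UMIs. Napsa was at 811 and 713 CPM (-0.19), and Jaml and Syngr2 were at -0.02 and -0.03.

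**Figure D4:**
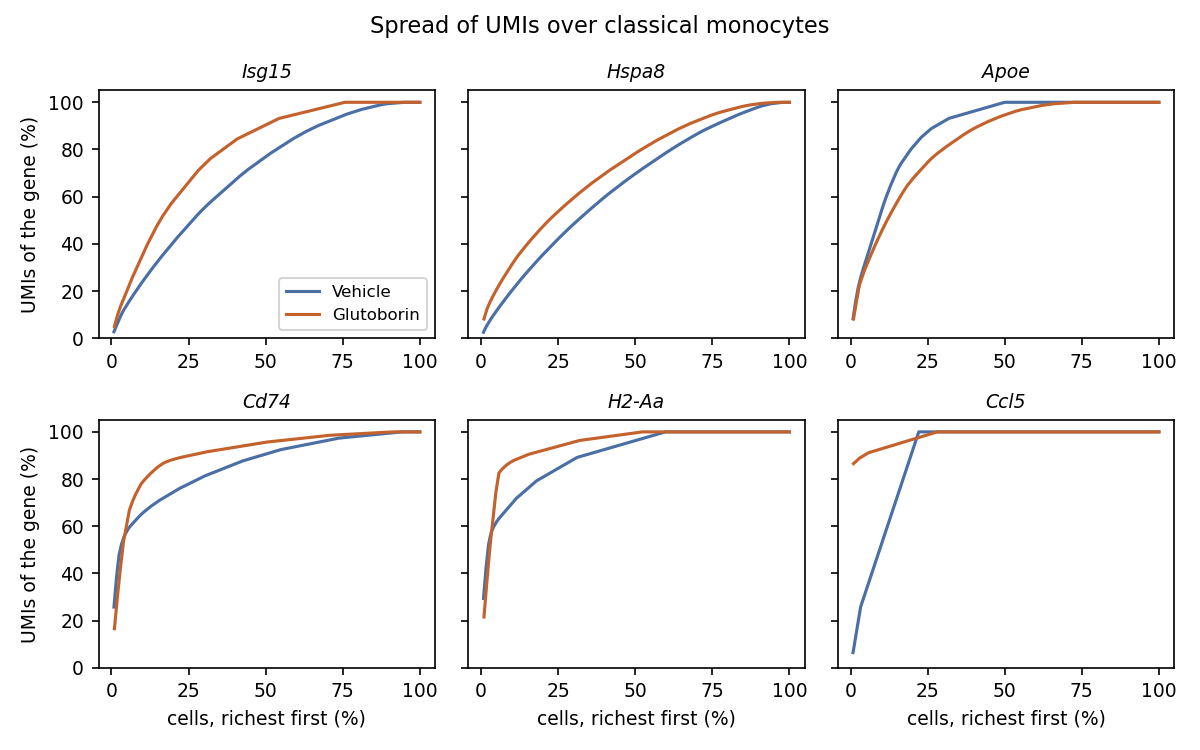
Cumulative percent of a gene's UMIs (vertical axis) held by classical monocytes ranked from the richest (horizontal axis, percent of cells) for Isg15, Hspa8, Apoe, Cd74, H2-Aa and Ccl5, Vehicle in blue and Glutoborin in orange. Curves for Cd74 and H2-Aa climb steeply within the first few cells, 1 Glutoborin cell held 86.5% of the Ccl5 UMIs, and Hspa8 was spread over most cells.

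The highest log2 ratio of all measured genes, that of the chemokine Ccl5, rested on a single cell. Ccl5 was at 22.3 and 214 CPM (3.26) and Gzma, a cytotoxic granule protease, at 13 and 115 CPM (3.15). In Glutoborin 1 cell held 86.5% of the Ccl5 UMIs, and 1 cell held 92.1% of those of Gzma. NK markers summed to at least 10 UMIs in 1 Glutoborin member, which held 87.6% of them, and in no Vehicle member. Without the members rich in class II, NK or macrophage genes Ccl5, which did not choose them, was at 0.33 (-0.46 to 1.12).

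The other chemokines split. Cxcl10 had 480.1 CPM among Vehicle cells and 171 CPM among Glutoborin cells (-1.49, -1.72 to -1.27), from 48 and 16 cells, with 77.2% and 97.1% of its UMIs in the 10 richest. Cells with at least 10 Cxcl10 UMIs numbered 12 in Vehicle and 4 in Glutoborin. Ccl3 and Ccl4, inflammatory chemokines, were at 165 and 59.3 CPM (-1.47) and 124 and 56.0 CPM (-1.14). Thinned to 3000 UMIs per cell, Ccl3 was at -0.52, short of 1.5-fold. Ccl6 (0.47), Ccl9 (0.47) and the Ccr2 ligand Ccl2 (-0.09, -0.47 to 0.28) were within the limit. Of 9 measured chemokines 3 were lower and 1, Ccl5, higher.

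Among receptors for migration, Cxcr4, which retains cells in bone marrow, was at 65.5 and 24.7 CPM (-1.41), and Ccrl2, a receptor that binds chemerin, at 69.1 and 28.8 CPM (-1.26). Cx3cr1, the fractalkine receptor that is higher in nonclassical monocytes, was at 99.3 and 183 CPM (0.88). With no limit on nonclassical genes the Cx3cr1 log2 ratio was 0.48, and as a mean of per-cell levels 0.51, both short of 1.5-fold. Ccr1 (-0.42) and Ptafr (-0.13) were within the limit. In the adhesion list 12 of 13 genes were within it, among them Cd47 (-0.16), Selplg (-0.24), Itgb7 (-0.05) and Itga4 (-0.05).

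Heat shock genes were lower when summed, with 4 of 11 measured genes past 1.5-fold and none higher. The list had 5544 and 3839 CPM (-0.53, -0.58 to -0.48), and a median of 52.7 and 35.7 UMIs per 10000 UMIs of a cell. Hspa8, the abundant constitutive Hsp70-type chaperone, had 2285 CPM among Vehicle cells and 988 CPM among Glutoborin cells (-1.21, -1.31 to -1.11). Its median per 10000 UMIs of a cell was 20.3 and 8.06. Hspa1b, the stress-induced Hsp70, had 106 and 6 UMIs (-3.95, -5.43 to -2.78), from 22 and 6 cells. In Vehicle 1 cell held 39.6% of the Hspa1b UMIs. Its neighbour Hspa1a is near-identical, which could have affected the Hspa1b count. The Hsp40 co-chaperones Dnaja1 (-0.75) and Dnajb1 (-0.90) were the other members past the limit. Hsp90ab1 (-0.22), the endoplasmic reticulum chaperone Hspa5 (-0.30), Hsp90aa1 (0.10) and the cold-induced Rbm3 (0.09) were not, and the median ratio of the 11 genes was -0.22, nearer to 0 than that of the sum. Hspa8 had log2 ratios of -1.12 in nonclassical monocytes and -0.62 in B cells.

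**Figure D5:**
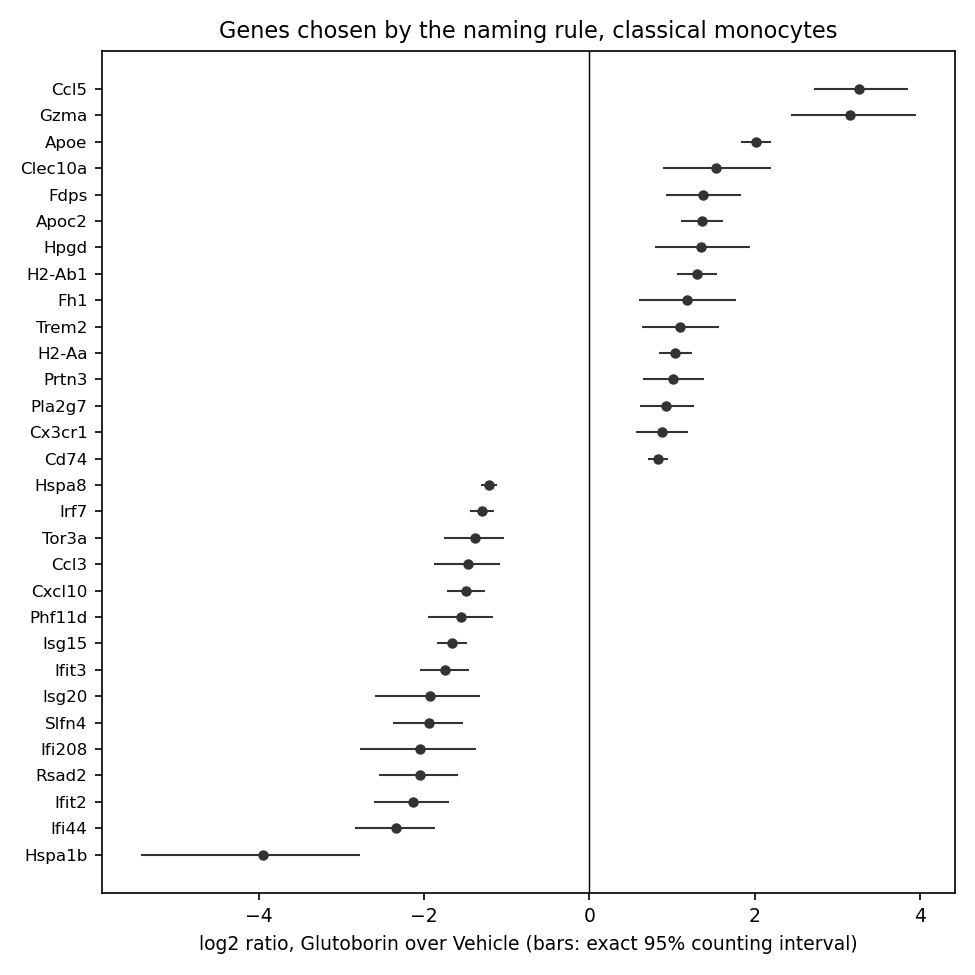
Log2 ratio of Glutoborin over Vehicle (points) with its exact 95% counting interval (bars) for the 30 genes chosen by the naming rule, 15 on each side. Hspa1b (-3.95) and Ifi44 (-2.33) are lowest, Ccl5 (3.26), Gzma (3.15) and Apoe (2.02) highest.

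Apoe, the apolipoprotein by which lipid particles are taken up, had the highest log2 ratio of the named genes after Ccl5 and Gzma. It had 233 CPM among Vehicle cells and 943 CPM among Glutoborin cells (2.02, 1.84 to 2.20), from 61 and 75 cells. The 10 richest cells held 46.3% of the Apoe UMIs in Vehicle and 44.3% in Glutoborin. Thinned to 3000 UMIs, 31.1% of Vehicle cells (22.9 to 40.2%) and 60.0% of Glutoborin cells (49.4 to 69.9%) held an Apoe UMI, against 18.8% and 22.2% of B cells. Apoc2, the cofactor of lipoprotein lipase and Apoe's neighbour on chromosome 7, was at 137 and 352 CPM (1.36, 1.11 to 1.62). Thinned monocytes held an Apoc2 UMI in 26.9% and 55.8%, and thinned B cells in 0.306% and 0.331%. Per 10000 UMIs, Apoe and Apoc2 together had a median of 1.66 in Vehicle cells and 10.5 in Glutoborin cells. Both were higher in Glutoborin nonclassical monocytes as well, at 1.27 (1.12 to 1.42) and 1.43 (1.12 to 1.73).

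Other lipid genes past the limit were Fdps, an enzyme of the cholesterol pathway, at 43.9 and 114 CPM (1.37), and the lipid droplet coat Plin2 at 145 and 243 CPM (0.74). Of 11 measured lipid genes these and Apoe were higher, none was lower, and the median was 0.09. Alox5ap (0.03) and Mgst1 (0.05) were near 0. Trem2, a lipid receptor of macrophages, was at 44.6 and 95.6 CPM (1.10), and Pla2g7, which hydrolyses oxidised phospholipids, at 90.7 and 173 CPM (0.93). Hpgd, which inactivates prostaglandins, was at 28.1 and 71.7 CPM (1.35), and the fumarase Fh1 at 28.1 and 63.5 CPM (1.18). Thinned, Fh1 was at 0.52, and with no limit on nonclassical genes Pla2g7 was at 0.58, both just short of 1.5-fold.

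Inflammatory cytokine and inflammasome genes were lower or near 0. Of 12 measured genes 4 were lower and none higher, with a median of -0.39. Il1b, the cytokine released through the inflammasome, was at 59.7 and 18.1 CPM (-1.72, -2.47 to -1.03), and at -0.59 among members without a Cd79a UMI. Casp4 (caspase-11, which senses lipopolysaccharide) was at -0.88, and the NF-kappaB regulators Nfkbia and Nfkbiz at -0.66 and -0.66. The adaptor Pycard (0.19), Tgfb1 (0.12) and Casp1 (-0.34) were within the limit. Immediate early genes, the regulators induced first after a stimulus, had none of 16 past it, with Fos at -0.19, Junb at -0.26, Dusp1 at -0.53, Zfp36 at -0.43 and Klf2 at -0.09.

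In the complement and Fc receptor list, Cfb, complement factor B, was at 209 and 83.2 CPM (-1.33, -1.67 to -1.0), and Fcgr1 was the other member past the limit among 16. Fcer1g (-0.01), Pirb (0.16), the inhibitory receptor Lilrb4a (-0.49) and C3 (-0.35) were not. Of the coagulation and matrix list Fgl2, a prothrombinase, was at 435 and 227 CPM (-0.93) and the syndecan Sdc3 at 169 and 65.9 CPM (-1.36), while Thbs1, thrombospondin, was higher (0.76). Ass1, an enzyme on the route from citrulline to arginine, was the gene past the limit among 9 of amino acid metabolism, at 85.7 and 38.7 CPM (-1.15). Glud1, glutamate dehydrogenase, was within it (-0.08).

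Granule and antimicrobial genes moved both ways. Plac8 was at 7559 and 5460.3 CPM (-0.47), Hp (haptoglobin) at -0.04, Wfdc17 at 0.31, the pore protein Mpeg1 at -0.36 and Anxa1 at -0.33, all within 1.5-fold. Prtn3 (proteinase 3, made in granulocyte and monocyte precursors) was at 69.8 and 141 CPM (1.01), and at 0.32 when cells were thinned. S100a8 (0.70), Lcn2 (0.69) and Thbs1 were also higher and Pglyrp1 (-0.98) lower, so that 4 of 12 were higher and 1 lower. In Vehicle 1 cell held 38.2% of the S100a8 UMIs. Neutrophil markers, S100a8 included, summed to 235 and 321 CPM in the members, with Ly6g at 0 and 1 UMI, and the part of such RNA in these values was not tested.

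Genes that handle iron and haem from red cells were nearly level. Ftl1 and Fth1, the ferritin chains, were at 3686 and 4037 CPM (0.13) and 2309 and 2536 CPM (0.14), with Nfe2l2 at -0.09, Bach1 at -0.28 and Lrp1 at 0.24. Hmox1, the haem-degrading enzyme, was lower, at 112 and 56.0 CPM (-1.0, -1.44 to -0.58), and Lcn2, which binds siderophores, was higher. Of 12 measured genes 1 was lower and 1 higher. Haemoglobin and other erythroid markers summed to 4 UMIs in the Vehicle and 2 in the Glutoborin members.

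Several programmes of monocyte identity and metabolism were within the limit. None of 19 respiratory burst and antioxidant genes passed it: Gpx1 was at 0.16, the oxidase subunits Cybb and Cyba at -0.19 and 0.08, and Prdx5 and Prdx1 at 0.10 and 0.14. None of 21 transcription factors did either, with Cebpb at -0.54, Zeb2 at -0.36, Spi1 (PU.1) at -0.06, Klf2 at -0.09 and Klf13 at -0.17. In glycolysis only Hk2 (hexokinase 2) of 15 was lower (-0.65), beside Gapdh at 0.24, Pkm at 0.00, Aldoa at 0.07, Gpi1 at 0.09 and Eno1 at 0.00. Among 23 lysosome genes only Ctsd (cathepsin D, 0.62) was higher, beside Psap (-0.09), Ctss (-0.42), Cst3 (0.11), Npc2 (-0.48) and Ctsc (-0.10). Of 13 pattern recognition genes only the uric acid receptor Clec12a was higher (0.77), and of 13 growth factor and cytokine receptors only Il10rb (0.63), with the M-CSF receptor Csf1r at -0.16 and the signal adaptor Tyrobp at 0.14. Among 19 S100, galectin and annexin genes S100a8 was higher and Lgals9 (-0.95) lower, with Tmsb10 at -0.24, S100a6 at 0.20, Crip1 at 0.00, S100a4 at 0.34 and Lgals3 at -0.05. None of these lists had more than 1 gene past the limit in either direction.

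The genes of the selection rule are given last and only as a description. Ly6c2 had 7594 CPM among Vehicle cells and 4323 CPM among Glutoborin cells (-0.81), with a median of 76.2 and 40.7 UMIs per 10000 of a cell. Fn1, fibronectin, was at 578 and 1295 CPM (1.16), Chil3 (Ym1) at 4849 and 3583 CPM (-0.44) and Vcan (versican) at 196 and 280.2 CPM (0.52). Lyz2, Ccr2 and F13a1 were at 0.14, 0.15 and 0.19. Within a library, the type I interferon level of a cell and its Ly6c2 level had Spearman's rho of 0.42 over 122 Vehicle cells (Pearson's r 0.46) and 0.18 over 103 Glutoborin cells (Pearson's r 0.17). Those cells share a library and both levels are divided by the same cell total, so these are descriptions of 1 library each. With the Ly6c2 condition dropped, 123 and 104 cells were taken and the type I interferon list kept a median of -0.91. Only 1 barcode was added to each library, so this cannot show whether the list's median depends on the Ly6c2 condition.

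Outside the rule genes, genes chosen for differing in the same direction in both libraries describe how classical cells differed from nonclassical ones. Lgals1 was 1.77 higher on the log2 scale in classical than in nonclassical Vehicle cells (787 against 230.3 CPM) and 1.60 higher in Glutoborin (1043 against 344 CPM). S100a8 was 1.94 and 3.11 higher, the lipoprotein lipase Lpl 1.94 and 2.84, S100a10 1.39 and 1.59, and Hp 1.13 and 1.22. The sizes were not alike for every gene: the collagenase Mmp8 was 3.11 higher (2.19 to 4.19) in Vehicle and 1.59 higher (1.06 to 2.14) in Glutoborin. Eno3, a muscle-type enolase, was at 1.44 CPM in classical and 242 CPM in nonclassical Vehicle cells, and at 1.65 and 285 CPM in Glutoborin. Fcgr4, an IgG receptor, was lower in classical cells by a log2 ratio of -2.87 in Vehicle and -3.01 in Glutoborin, the ribonuclease gene Ear2 by -2.83 and -3.65, and Tcf7l2 by -3.51 and -2.72. Bcl2a1b, of the Bcl2 family of survival genes, was at -6.12 (-7.76 to -4.87) and -2.93 (-3.59 to -2.32). It belongs to a set of near-identical copies, which could have affected its count. The classes were parted by the nonclassical genes, which these genes may follow, so the values describe the members and carry no test. Of the nonclassical cells, 51 of 76 in Vehicle and 32 of 70 in Glutoborin met every other classical condition, and the part of this in the sizes was not tested.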

How the data were processed

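Unnormalized UMI counts per gene and barcode, as the authors deposited them, were used for 2 droplet single-cell libraries, 1 per group. Per the file headers, Cell Ranger 6.1.2 made the matrices, while the submitters' processing notes list Cell Ranger 6.0.1, Seurat 4.3.0 and mm10. Their annotation release is not stated in the sources used. Of 32285 gene identifiers 32235 were found in GENCODE M21 on GRCm38, the build called mm10.

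Barcodes were kept with a minimum of 300 genes and 500 UMIs and with less than 10% of UMIs mitochondrial (Python 3.11.15, scanpy 1.11.5). Doublets called by Scrublet, 196 in Vehicle and 352 in Glutoborin, were kept and left out as an alternative. B cells had at least 3 Cd79a UMIs, no Cd3e and fewer than 10 Lyz2. For each class, CPM is a gene's summed UMIs over the class total. Ratios carry the exact conditional binomial interval and shares the Clopper-Pearson interval (scipy 1.17.1). Only the ratio interval was checked on simulated data. Those counts varied by counting error alone, as the interval assumes, so the check does not cover UMIs gathered in few cells. With 1 library per group no p-value is given, and p-values would in any case not have measured the spread between mice.

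Named genes had at least 100 UMIs over both libraries and 50 CPM in the higher one, outside the rule, antigen receptor, haemoglobin and mitochondrial genes, and were the 15 on each side whose interval bound lay furthest from no change. Of each list the 5 with the most UMIs and those past 1.5-fold are named, and a few others were named after their values were seen. The cells, the 30 lists and the tests were chosen with earlier results of these data known. Mx1, Mx2, Mnda, Cxcl11, Clec7a, Clec6a, Sting1, Serpinb10 and H2az1 matched no feature symbol and were not analysed here. Alternatives varied the gates, filters, doublets, thinning to 3000 UMIs, cell weights, scaling (edgeR 4.0.16 TMM), minimum UMIs and the fold. Some genes of the lists are counted but not reported by name here.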

Additional observations from a re-analysis of the deposited data

How the results depend on the processing

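The share of classical monocytes and the type I interferon list's summed and median log2 ratios stayed below 0 under every alternative run for them. The share's log2 ratio ranged from -0.89 to -0.40, and the list's median from -1.0 to -0.83. The list's summed log2 ratio was -0.68 with no nonclassical gene allowed, -0.61 with no limit on nonclassical genes and -0.62 when centred on the median gene. Of its members, 25 were past 1.5-fold when cells were thinned to 3000 UMIs (fewer UMIs, so fewer genes reach the minimum), and 27 were past 2-fold. Genes at least 1.5-fold lower numbered 316 by mean per-cell CPM, 69 when thinned, 356 at a minimum of 50 UMIs and 98 at 200, and 61 were past 2-fold. Genes higher numbered 52 with Cd79a at 0, 30 when thinned, 224 at 50 UMIs and 24 at 200, and 13 were past 2-fold. For Cd79a at 0 and per-cell CPM the cause was not tested. The DC-like list median (-0.080), Gzma (-0.49) and H2-Aa (-0.32) turned below 0 without cells rich in other types' genes; class II genes and Gzma chose those cells, so a fall of these values is built in. H2-Eb1 (-0.35), Nkg7 (-0.08) and Cd209a (-4.67, from 31 and 1 UMIs), recomputed only there, also turned. The class II genes H2-Ab1 (0.47, 0.05 to 0.89) and Cd74 (0.18, -0.03 to 0.38) stayed above 0 in the same cells. Ciita, a regulator of class II genes, was at 1.86 (0.89 to 2.94) there, from 12 and 36 UMIs. Of 36 genes recomputed under the whole set of alternatives only Gzma and H2-Aa changed sign. Medians of 14 of 29 lists took both signs, among them chemokines (-0.79 to 0.61), chemokine and egress receptors (-0.50 to 0.88) and MHC class II (-0.06 to 0.75). No paired analysis was possible because each group is 1 library. Leaving out cells rich in other types' genes, dropping the limit on nonclassical genes and the share of all barcodes were added after seeing the data. The median gene was at -0.02 and the TMM shift was -0.01; both are subtracted, so ratios rise. A fold of a gene near 100 UMIs in all is limited by counting, and no value here shows the spread between mice.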

Other observations

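Genes of the nonclassical programme were mixed in the classical cells. Of 12 measured outside the rule, 2 were at least 1.5-fold higher in Glutoborin and 1 lower, with a median log2 ratio of -0.09. The higher ones were Apoc2 and Cx3cr1, and the lower one Pglyrp1 (-0.98). Ctsc (-0.10), Clec4a3 (-0.06), the transcription factor Pou2f2 (-0.57) and Nr4a1 (-0.22), on which nonclassical monocytes depend, were within the limit. In the nonclassical cells themselves 5 of 20 measured genes of this list were higher and none lower, with a median of 0.20. That class was not the same mixture in both libraries. All other classical conditions were met by 51 of its 76 Vehicle cells and 32 of its 70 Glutoborin cells. The part of this in the values was not tested. The neutrophil-like list had 3 of 11 genes higher (Prtn3, S100a8 and Lcn2) and 1 lower, with a median of 0.10. Cells with at least 5 UMIs of granule proteases numbered 5 of 122 in Vehicle and 8 of 103 in Glutoborin. Among cell death genes 2 of 13 were lower, the apoptosis activator Pmaip1 (-0.85) and the kinase Ripk1 (-0.59), and the survival factor Mcl1 was at -0.09. Of 9 checkpoint genes Trem2 was higher and Lgals9 lower, with the inhibitory receptor Vsir (Vista) at 0.04. None of 5 measured cell cycle genes was past the limit, and 1 Glutoborin member held 68.5% of that library's UMIs of S phase and mitosis genes.

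Cells around the selection were also counted. In Vehicle 9 barcodes over the mitochondrial limit met all the gene conditions, with a median of 2273 UMIs, and in Glutoborin none did, among 1516 and 393 barcodes that failed the filters. Barcodes kept out by the nonclassical genes alone had medians of 10447 and 11072 UMIs, and those kept out by Cd79a alone 13754 and 17432. The 11 Glutoborin barcodes kept out for having too few classical genes had a median of 2574 UMIs, against 2 such Vehicle barcodes at 7097.5. Within a library the type I interferon level of a cell and its interferon gamma list level had Spearman's rho of 0.43 over 122 Vehicle and 0.52 over 103 Glutoborin cells (Pearson's r 0.38 and 0.48). With the mitochondrial percent rho was -0.34 and 0.24, and with total UMIs -0.11 and -0.02. These cells share a library and a cell total, so the values are descriptions.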
